A study of Danio rerio with 2 samples.

Results

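The 9 genes described here make, load or take up fast neurotransmitters, namely *gad1a*, *gad1b*, *gad2*, *slc32a1*, *slc17a6a*, *slc17a6b*, *slc17a7a*, *slc6a5* and *slc18a3a*. They were chosen by symbol, and all 9 were found among the 37423 genes of the count matrices. Their transcripts were counted as unique molecular identifiers (UMIs), in which each captured transcript molecule counts once, in single cells of whole zebrafish heads at 3 dpf. The series holds 1 library of *polr3a* sa907/sa907 heads and 1 library of *polr3a* +/+ heads, each a pool of 10 heads, so no test between the genotypes was possible. The sa907 allele is a chemically induced nonsense mutation of *polr3a*, which encodes the largest subunit of RNA polymerase III. All heads came from embryos of heterozygous parents of which one carried Tg(fli1a:egfp) and the other Tg(sox10:mRFP), picked for both fluorescent signals, which mark endothelium and neural crest derivatives. The viable cells were flow sorted before capture, and cells of single fish in a pool cannot be told apart.

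Neurons release the transmitter that their enzymes and vesicle transporters provide. The glutamate decarboxylases encoded by the gad genes make GABA from glutamate, and the vesicular inhibitory amino acid transporter encoded by *slc32a1* loads both GABA and glycine into synaptic vesicles. Glycinergic neurons, which are found mainly in the hindbrain and spinal cord, also carry the plasma membrane glycine transporter encoded by *slc6a5*, which is not a vesicle protein but supplies the glycine that *slc32a1* loads. Vesicular glutamate transporters of the slc17 family mark excitatory neurons, with *slc17a6a* and *slc17a6b* as duplicates of one ancestral gene and *slc17a7a* as the form used by bipolar cells of the retina and granule cells of the cerebellum. The vesicular acetylcholine transporter encoded by *slc18a3a* marks cholinergic neurons, among them motor neurons and the starburst amacrine cells of the retina.

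The mutated gene was examined first. For *polr3a*, 1788 UMIs were counted in the library labelled mutant, against 1715 in that labelled wild-type. These are 16.6 CPM (UMIs of a gene per 1000000 UMIs of the cells) in the library labelled mutant, against 14.1 CPM in that labelled wild-type, and a log2 ratio of 0.23 (95% interval 0.14 to 0.33). The transcript of the mutated gene was thus not lower in the library labelled mutant, so the counts do not check the labels, and the cells are called mutant-labelled and wild-type-labelled here. By qRT-PCR the paper did find less *polr3a* mRNA in homozygous mutants at 3 dpf. It also states that the fish were genotyped from fin clips before their heads were pooled. The matrices held 32228 mutant-labelled and 43611 wild-type-labelled barcodes, with 405 barcode sequences occurring in both. After the filters and a doublet score, 23044 mutant-labelled cells with a median of 3821.5 UMIs and 30542 wild-type-labelled cells with a median of 3155.5 UMIs remained. Cells were assigned to types by marker gates, in which a cell needs UMIs of at least 2 markers of the type, or 3 for some types. The neuron gate, built on 9 pan-neuronal genes such as *elavl3* and *snap25a*, held 7881 mutant-labelled cells (34.2% of that library) and 11753 wild-type-labelled cells (38.5%). Ratios are mutant-labelled over wild-type-labelled, and intervals are exact 95% intervals that account for counting error alone and leave out the spread between fish or libraries. Those of ratios and CPM treat UMIs as independent, so they also leave out the spread between cells.

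Transcripts of 8 of the 9 genes lay mainly in the neuron gate. That gate leaves out cells that met a gate of bipolar cells, photoreceptors or hair cells, which were counted apart. The neuron gate held 77.6% of mutant-labelled and 76.0% of wild-type-labelled *gad1b* UMIs, and these were the lowest shares among the 8. The highest were 90.4% of mutant-labelled *slc17a6a* UMIs and 88.5% of wild-type-labelled *slc32a1* UMIs. The exception was *slc17a7a*, with 26.6% of mutant-labelled and 31.7% of wild-type-labelled UMIs in that gate, and much of the remainder in gates of bipolar cells and photoreceptors. In cells that should lack these transcripts few UMIs were found. After each cell was thinned to 1000 UMIs, no member was found in more than 0.556% of 900 mutant-labelled or 0.772% of 1295 wild-type-labelled epidermal cells.

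**Figure D1:**
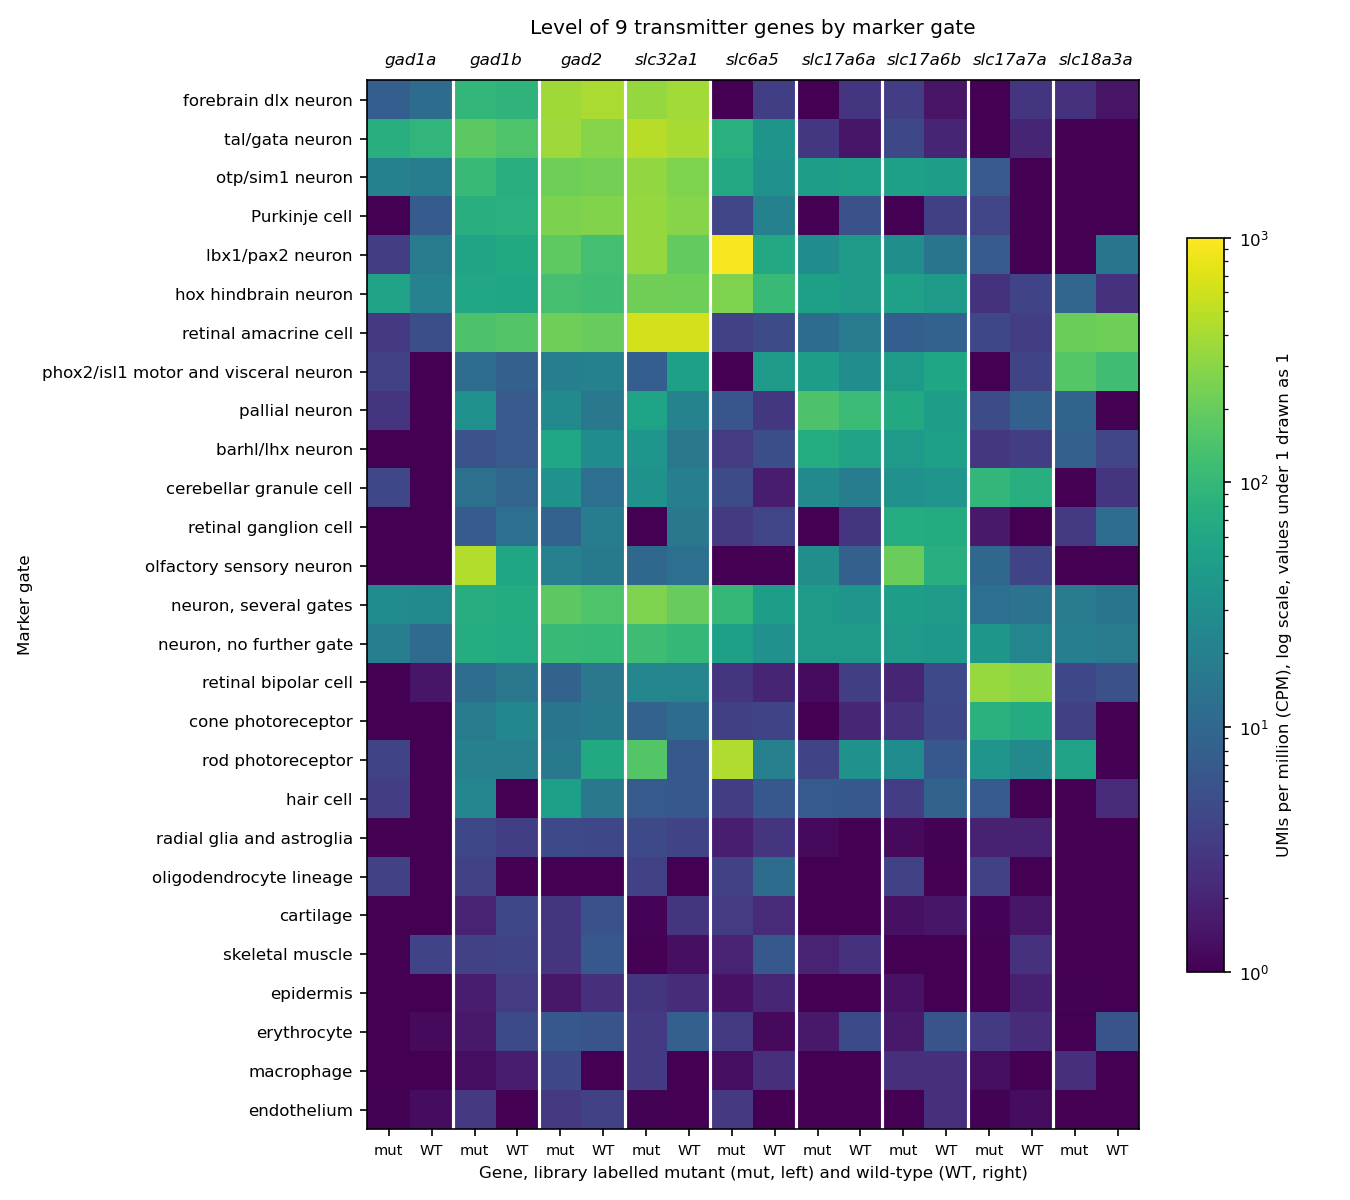
Level of each of the 9 genes in each marker gate (CPM, colour on a log scale, values under 1 drawn as 1), with the library labelled mutant at the left and the library labelled wild-type at the right. High entries in both libraries include *slc32a1* in amacrine cells (648 CPM mutant-labelled, 628 CPM wild-type-labelled) and *slc17a7a* in bipolar cells (348 CPM mutant-labelled, 305 CPM wild-type-labelled). Some high entries in gates of few cells differ. Among these, *slc6a5* in lbx1/pax2 neurons and rods and *gad1b* in olfactory sensory neurons are far higher in the library labelled mutant.

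Among the genes of inhibitory transmission, *gad2* and *slc32a1* were each high in several gates. For *gad2*, 429 UMIs (378 CPM) were counted in mutant-labelled forebrain dlx neurons, against 573 UMIs (411 CPM) in wild-type-labelled ones. Neurons with tal and gata transcription factors, a class of the midbrain and hindbrain, followed with 359.7 CPM mutant-labelled and 286 CPM wild-type-labelled. Purkinje cells, the inhibitory output neurons of the cerebellar cortex, came next with 259 CPM mutant-labelled and 272 CPM wild-type-labelled. With both libraries pooled, the *gad2* intervals of dlx and tal/gata neurons did not overlap, whereas those of Purkinje cells and otp/sim1 neurons did. The log2 ratio of *gad2* was -0.12 (-0.30 to 0.06) in dlx neurons and 0.33 (0.20 to 0.47) in tal/gata neurons.

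For *slc32a1* the order differed from that of *gad2*, with amacrine cells, the inhibitory interneurons of the retina, first. Mutant-labelled amacrine cells held 1648 UMIs (648 CPM), against 1804 UMIs (628 CPM) in wild-type-labelled ones, a log2 ratio of 0.05 (-0.05 to 0.14). Next were tal/gata neurons with 475 CPM mutant-labelled and 403 CPM wild-type-labelled (log2 ratio 0.24, 0.12 to 0.35). In dlx neurons *slc32a1* stood at 332 CPM mutant-labelled and 379.9 CPM wild-type-labelled (-0.19, -0.39 to 0.00). The levels in amacrine cells were thus within counting error of each other, while those in tal/gata neurons were not. This difference between the gates was not tested. Among all genes averaging 10 CPM or more in tal/gata neurons, the log2 ratio had a median of 0.10 and quartiles of -0.10 and 0.31. In amacrine cells the median was 0.06 and the quartiles were -0.12 and 0.25. The *slc32a1* ratio lay between the quartiles in both gates. A further small gate, here called lbx1/pax2, held neurons with lbx1, pax2, pax8 or en1b transcription factors. In vertebrates such factors are found in inhibitory interneurons of the hindbrain and spinal cord, though not only in these. The markers *pax8*, *pax2a* and *en1b* were among the genes most raised in this gate, and its lbx1 markers were not. With both libraries pooled, this gate also held 36.5 CPM of *slc17a6a* and 22.2 CPM of *slc17a6b*. There *slc32a1* stood at 333 CPM (95 UMIs in 68 cells) mutant-labelled and at 189 CPM (65 UMIs in 89 cells) wild-type-labelled.

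The duplicated decarboxylase genes were spread differently from *gad2*. In tal/gata neurons, *gad1a* reached its highest level, with 172 UMIs (76.0 CPM) mutant-labelled and 320 UMIs (94.2 CPM) wild-type-labelled. It was second in hox hindbrain neurons, with 39 UMIs (53.7 CPM) mutant-labelled and 16 UMIs (21.4 CPM) wild-type-labelled. In dlx neurons, where *gad2* was highest, *gad1a* stood at only 7.93 CPM mutant-labelled and 11.5 CPM wild-type-labelled. The level of *gad1b* was 175 CPM mutant-labelled and 151 CPM wild-type-labelled in tal/gata neurons, and 146 CPM mutant-labelled and 156 CPM wild-type-labelled in amacrine cells. The pooled *gad1b* intervals of these gates overlapped. Olfactory sensory neurons gave 451 CPM of *gad1b* mutant-labelled and 57.8 CPM wild-type-labelled, but on 44 UMIs in 4 mutant-labelled cells and 14 UMIs in 3 wild-type-labelled cells. When cells that met several gates were counted in each of them, the log2 ratio of *gad1b* in olfactory sensory neurons was 0.56 in place of 2.96. Retinal horizontal cells, too few for a gate of their own, were counted in the same way. They held 34 *gad1b* UMIs (300 CPM) in 28 mutant-labelled cells. In 40 wild-type-labelled cells they held 126 UMIs (1243 CPM), a log2 ratio of -2.05 (-2.64 to -1.50). The olfactory gate marker *ompa* was among the genes most raised in the horizontal cell gate.

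Of all gad UMIs in the neuron gate, *gad2* held 60.5% mutant-labelled and 59.5% wild-type-labelled. The share of *gad1b* was 31.2% mutant-labelled and 32.0% wild-type-labelled, and that of *gad1a* 8.31% mutant-labelled and 8.54% wild-type-labelled. The division among the gad genes over all neurons was therefore close in both libraries, while it moved with cell type. In dlx neurons *gad2* took 78.1% of mutant-labelled and 80.4% of wild-type-labelled gad UMIs, while in tal/gata neurons *gad1a* took 12.4% mutant-labelled and 17.7% wild-type-labelled. How reads that match close duplicates were divided during counting was not examined.

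The vesicular glutamate transporters were highest in different gates. Pallial neurons, the excitatory class of the dorsal telencephalon, had the highest level of *slc17a6a*, with 203 UMIs (144 CPM) mutant-labelled and 179 UMIs (111 CPM) wild-type-labelled (log2 ratio 0.38, 0.08 to 0.68). In barhl/lhx neurons *slc17a6a* stood at 72.3 CPM mutant-labelled and 54.1 CPM wild-type-labelled (0.42, 0.10 to 0.73). Retinal ganglion cells, whose axons carry the output of the eye, were the opposite case. They held 1 mutant-labelled and 4 wild-type-labelled UMIs of *slc17a6a*, but 90 UMIs (72.7 CPM) of *slc17a6b* mutant-labelled and 101 UMIs (70.5 CPM) wild-type-labelled (log2 ratio 0.05, -0.38 to 0.47). Of the UMIs of both duplicates in ganglion cells, *slc17a6b* took 98.9% mutant-labelled and 96.2% wild-type-labelled, and in pallial neurons it took 31.4% mutant-labelled and 29.8% wild-type-labelled. The division between the duplicates thus differed between these gates, in the same direction in both libraries. In other gates the duplicates were about equal. Hox hindbrain neurons held 37 *slc17a6a* and 38 *slc17a6b* UMIs mutant-labelled and 33 *slc17a6a* and 32 *slc17a6b* UMIs wild-type-labelled. Neurons that met no further gate held 382 *slc17a6a* and 386 *slc17a6b* UMIs mutant-labelled and 480 *slc17a6a* and 468 *slc17a6b* UMIs wild-type-labelled. Another high gate for *slc17a6b* was that of olfactory sensory neurons, with 20 UMIs (205 CPM) in 27 mutant-labelled cells and 19 UMIs (78.4 CPM) in 57 wild-type-labelled cells.

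Bipolar cells, the excitatory interneurons of the retina, had the highest level of *slc17a7a*, with 858 UMIs (348 CPM) mutant-labelled and 597 UMIs (305 CPM) wild-type-labelled (log2 ratio 0.19, 0.04 to 0.34). In bipolar cells *slc17a7a* made up 99.1% of mutant-labelled and 97.4% of wild-type-labelled UMIs of the 3 slc17 members. Cerebellar granule cells followed with 96.3 CPM mutant-labelled and 78.0 CPM wild-type-labelled (0.30, -0.01 to 0.62). Cones, whose pooled interval overlapped that of granule cells, had 82.9 CPM mutant-labelled and 69.8 CPM wild-type-labelled (0.25, -0.02 to 0.51). In cones *slc17a7b*, the duplicate of *slc17a7a*, stood at 164 CPM mutant-labelled and 167 CPM wild-type-labelled. The vesicular glutamate transporter of hair cells, *slc17a8*, stood in the hair cell gate at 324 CPM (92 UMIs) mutant-labelled and 232 CPM (103 UMIs) wild-type-labelled.

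Habenula neurons, which lie in the dorsal diencephalon, were too few for a gate of their own, and are described with overlapping gates, which held 59 mutant-labelled and 132 wild-type-labelled cells. All 3 slc17 members were found there. The level of *slc17a6b* was 231 CPM mutant-labelled and 197 CPM wild-type-labelled, that of *slc17a7a* 192 CPM mutant-labelled and 161 CPM wild-type-labelled, and that of *slc17a6a* 105 CPM mutant-labelled and 94.9 CPM wild-type-labelled.

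The acetylcholine transporter *slc18a3a* was high in few gates. Amacrine cells held 535 UMIs (211 CPM) mutant-labelled and 630 UMIs (219 CPM) wild-type-labelled (log2 ratio -0.06, -0.23 to 0.11). Motor and visceral neurons with phox2 and isl1 held 41 UMIs (161 CPM) in 73 mutant-labelled cells and 29 UMIs (121 CPM) in 67 wild-type-labelled cells (0.41, -0.31 to 1.15). These 2 gates ranked first and second, their pooled intervals did not overlap, and the interval of the ratio included 0 in both. The enzyme that makes acetylcholine, *chata*, stood at 130 CPM mutant-labelled and 75.2 CPM wild-type-labelled in phox2/isl1 neurons. In amacrine cells *chata* stood at 53.9 CPM mutant-labelled and 50.5 CPM wild-type-labelled.

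The glycine transporter *slc6a5* was also high in few gates. With both libraries pooled, lbx1/pax2 neurons had its highest level, followed among neuronal gates by hox hindbrain neurons and tal/gata neurons, and none of these intervals overlapped. That order holds for the pool and for the library labelled mutant, where lbx1/pax2 neurons stood at 943 CPM, with 110 of their 269 UMIs in 1 cell. In the library labelled wild-type, hox hindbrain neurons (105 CPM) stood above lbx1/pax2 neurons (63.8 CPM) after removal of cells by a doublet score. In hox hindbrain neurons 191 UMIs (263 CPM) were counted mutant-labelled and 79 UMIs (105 CPM) wild-type-labelled. Amacrine cells held 10 UMIs (3.93 CPM) mutant-labelled and 14 UMIs (4.87 CPM) wild-type-labelled, and dlx neurons 0 UMIs mutant-labelled and 5 UMIs wild-type-labelled. The pooled level of otp/sim1 neurons (49.6 CPM) overlapped that of tal/gata neurons (53.9 CPM). Many *slc6a5* UMIs lay outside these gates, with 479 mutant-labelled and 386 wild-type-labelled UMIs in neurons that met no further gate, and 691 mutant-labelled and 385 wild-type-labelled UMIs in neurons that met several. A single mutant-labelled cell of the rod gate held 106 of the 109 *slc6a5* UMIs of that gate and library.

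The same genes were then compared between the libraries over all neurons. In the neuron gate *slc6a5* had 1882 UMIs (60.7 CPM) in the library labelled mutant, against 1086 UMIs (27.3 CPM) in that labelled wild-type (log2 ratio 1.15, 1.04 to 1.26). For *slc17a7a* the values were 647 UMIs (20.9 CPM) mutant-labelled and 646 UMIs (16.3 CPM) wild-type-labelled (log2 ratio 0.36, 0.20 to 0.52). For *slc32a1* they were 6807 UMIs (219.7 CPM) mutant-labelled and 7212 UMIs (181 CPM) wild-type-labelled (0.28, 0.23 to 0.32). These 3 genes were more than 1.2-fold higher in the library labelled mutant, and none of the 9 was below 0.8-fold. Of the 17140 genes that averaged at least 1 CPM in neurons, 17.9% were above 1.2-fold and 8.69% below 0.8-fold, 26.6% in all. With a stricter neuron gate only *slc6a5* stayed above 1.2-fold, and the log2 ratio of *slc17a7a* was 0.02.

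The other 6 genes lay closer to equality. The log2 ratio was 0.22 for *slc18a3a* (30.05 CPM mutant-labelled, 25.8 CPM wild-type-labelled, interval 0.09 to 0.35) and 0.20 for *gad2* (148 CPM mutant-labelled, 129 CPM wild-type-labelled, 0.14 to 0.26). It was 0.14 for *gad1b* (76.2 CPM mutant-labelled, 69.4 CPM wild-type-labelled, 0.06 to 0.22) and 0.13 for *gad1a* (20.3 CPM mutant-labelled, 18.5 CPM wild-type-labelled, -0.02 to 0.29). It was 0.13 for *slc17a6a* (38.2 CPM mutant-labelled, 34.8 CPM wild-type-labelled, 0.02 to 0.25) and 0.05 for *slc17a6b* (38.0 CPM mutant-labelled, 36.8 CPM wild-type-labelled, -0.07 to 0.16). All 9 ratios were thus above 1 in the neuron gate, as were 64.5% of all genes tested, with 7 intervals above 0 on the log2 scale and 2 that include it. Of all genes tested in neurons, 31.7% had an interval above 0 and 12.6% one below it, and a gene with more UMIs has a narrower interval. The median log2 ratio of the 9 was 0.20, against 0.08 for all genes tested, whose middle 90% ran from -0.47 to 0.52. When each cell was thinned to 1000 UMIs, the ratio was above 1 for 7 of the 9 genes, and the log2 ratios of *slc17a6a* and *slc17a6b* were -0.08 each, while that of *slc18a3a* was 0.57 and that of *slc17a7a* 0.55. With the gates of the library labelled mutant weighted to the makeup of the library labelled wild-type, *slc18a3a* in neurons was at 0.08. Of all genes tested in neurons, 99.1% had a lower ratio than *slc6a5*, 89.7% a lower one than *slc17a7a* and 44.1% a lower one than *slc17a6b*.

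**Figure D2:**
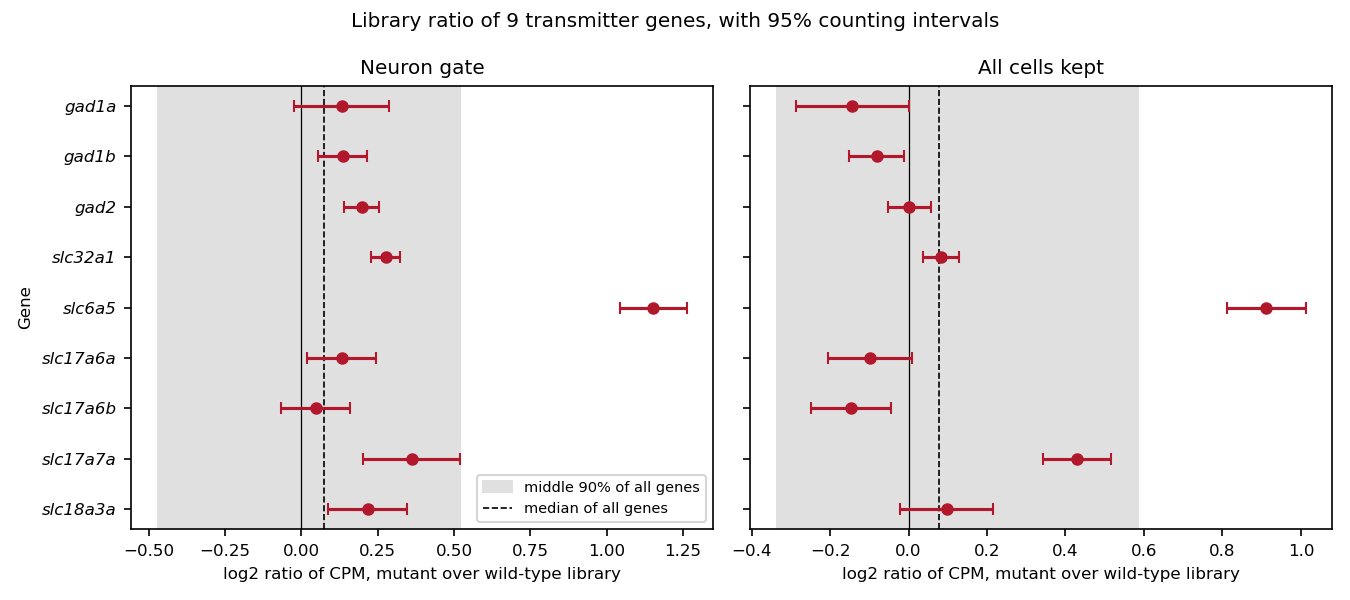
Log2 ratio of CPM, library labelled mutant over library labelled wild-type, for each of the 9 genes in the neuron gate (left) and over all cells (right), with 95% counting intervals. Grey marks the middle 90% of all genes and the dashed line their median, and *slc6a5* lies outside the grey band in both panels, at 1.15 and 0.91.

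Markers of neurons themselves also differed between the libraries within the neuron gate. The log2 ratios of 8 pan-neuronal markers were 0.30 for *snap25a*, 0.28 for *elavl4*, 0.17 for *snap25b*, 0.06 for *elavl3*, 0.05 for *stmn2b*, -0.05 for *sncb*, -0.07 for *gap43* and -0.07 for *stmn2a*. Thus 5 of these 8 markers were higher and 3 lower, and all members but *slc6a5* and *slc17a7a* had ratios no larger than that of *snap25a*. The part of these marker differences in the ratios of the members was not tested.

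Over all cells kept, the smaller share of neurons in the library labelled mutant enters the levels. So does the share of bipolar cells, the highest gate of *slc17a7a*, at 2.86% of mutant-labelled and 1.78% of wild-type-labelled cells. In this count *slc6a5* had 2196 UMIs (20.4 CPM) mutant-labelled and 1315 UMIs (10.8 CPM) wild-type-labelled (log2 ratio 0.91). For *slc17a7a* 2432 UMIs (22.5 CPM) were counted mutant-labelled and 2035 UMIs (16.7 CPM) wild-type-labelled (0.43). These 2 genes were more than 1.2-fold higher in the library labelled mutant, as were 19.1% of 19142 genes, and none was below 0.8-fold, as were 5.26% (24.4% on either side). The log2 ratios of the remaining members ran from -0.15 for *slc17a6b* (12.9 CPM mutant-labelled, 14.3 CPM wild-type-labelled) to 0.10 for *slc18a3a* (10.5 CPM mutant-labelled, 9.84 CPM wild-type-labelled). The median of the 9 was 0.00, and 3 intervals lay above 0, 2 below it and 4 included it. Of all genes tested over all cells, 44.6% had an interval above 0 and 17.5% one below it. Of 96 combinations of a member and a single gate with at least 20 UMIs in both libraries together, 23 had an interval above 0 and 7 one below it, against 11.4% above and 7.51% below for such combinations of all genes.

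The *slc6a5* difference was examined cell by cell because few cells carried it. These counts are of cells left after the doublet score and were not thinned to equal depth. Of 7881 mutant-labelled neurons, 154 held 1 *slc6a5* UMI (1.95%), 104 held 2 to 4 (1.32%), 65 held 5 to 9 (0.825%) and 44 held 10 or more (0.558%, 0.406% to 0.749%). Of 11753 wild-type-labelled neurons, 231 held 1 UMI (1.97%), 107 held 2 to 4 (0.910%), 44 held 5 to 9 (0.374%) and 17 held 10 or more (0.145%, 0.084% to 0.231%). The share of neurons with a single UMI was thus alike, and the libraries separated among the cells with many UMIs. The mean was 5.13 UMIs per *slc6a5*-positive neuron mutant-labelled and 2.72 wild-type-labelled. For the other 8 genes this mean differed less, with 2.62 mutant-labelled and 2.29 wild-type-labelled for *gad2*. The 10 richest neurons held 24.7% of the *slc6a5* UMIs mutant-labelled and 19.3% wild-type-labelled. Without them the log2 ratio was 1.05, and with at most 10 UMIs counted per cell it was 0.77.

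**Figure D3:**
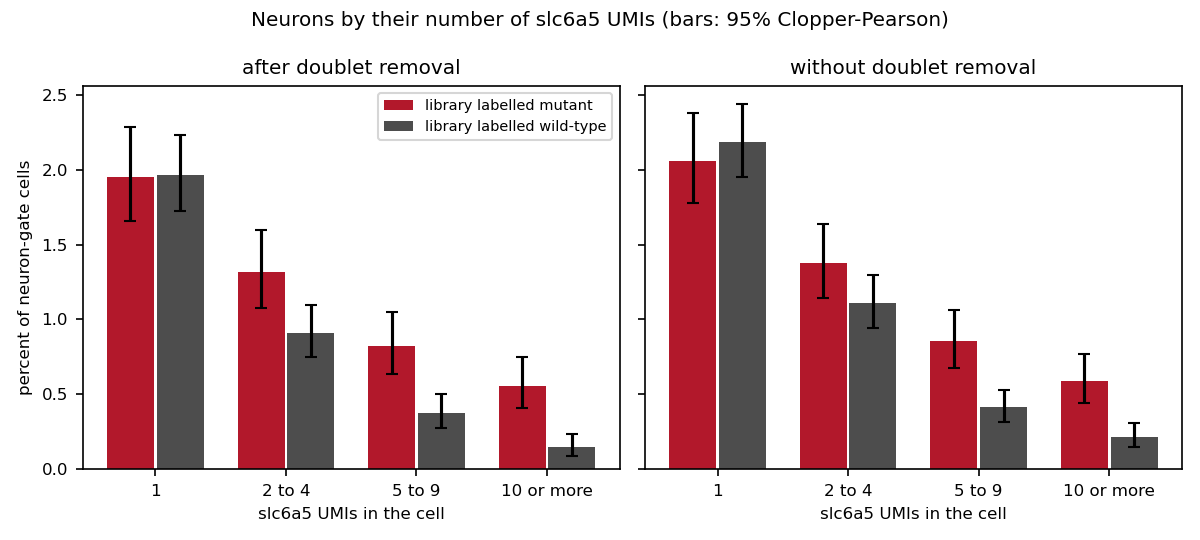
Percent of neuron gate cells with 1, 2 to 4, 5 to 9, and 10 or more *slc6a5* UMIs in the libraries labelled mutant and wild-type, after (one panel) and without (other panel) removal of cells by the doublet score, with Clopper-Pearson 95% bars. Cells with 10 or more UMIs made up 0.558% of mutant-labelled and 0.145% of wild-type-labelled neurons after removal, and 0.588% of mutant-labelled and 0.216% of wild-type-labelled neurons without it.

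The doublet score took *slc6a5* transcripts unevenly from the libraries. It removed 401 of 2597 *slc6a5* UMIs (15.4%) from the library labelled mutant, against 853 of 2168 (39.3%) from that labelled wild-type. Of all UMIs it removed 17.4% mutant-labelled and 23.7% wild-type-labelled, and of the UMIs of each other member 19.1% to 23.8% mutant-labelled and 25.3% to 30.3% wild-type-labelled. Among cells with 10 or more *slc6a5* UMIs, 11 of 56 mutant-labelled and 15 of 32 wild-type-labelled ones were removed. Ratios of *slc6a5* over neurons and over all cells, and the share of neurons with 10 or more UMIs, are therefore given both ways. The mean per positive neuron and the ratios without the 10 richest neurons or with capped UMIs are given after the removal only. Without the removal *slc6a5* stood at 57.4 CPM in mutant-labelled and 33.0 CPM in wild-type-labelled neurons (log2 ratio 0.80, 0.71 to 0.89), and over all cells the log2 ratio was 0.55 (0.46 to 0.63). The share of neurons with 10 or more UMIs was then 0.588% (0.441% to 0.768%) mutant-labelled and 0.216% (0.147% to 0.307%) wild-type-labelled.

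Among neuronal gates, the largest *slc6a5* ratio was that of lbx1/pax2 neurons, and it depended on the doublet score. After the removal 269 UMIs (943 CPM) were counted in 19 mutant-labelled cells, 110 of them in 1 cell, and 22 UMIs (63.8 CPM) in 8 wild-type-labelled cells, a log2 ratio of 3.88 (3.26 to 4.58). Without the removal the levels were 851 CPM mutant-labelled and 392 CPM wild-type-labelled, and the log2 ratio was 1.12 (0.86 to 1.38). Overlapping gates, which take in cells that also meet another neuronal gate, held 640 UMIs in 296 mutant-labelled cells and 288 UMIs in 360 wild-type-labelled cells, and the log2 ratio was 1.201 (0.998 to 1.407). It therefore lay near 1 in 2 of these 3 counts.

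In 3 further groups of neurons the *slc6a5* ratio was above 1 with and without the score. In hox hindbrain neurons the log2 ratio was 1.32 (0.93 to 1.71) after the removal and 1.51 (1.16 to 1.87) without it, and 0.97 when the richest cell of each library was left out. In tal/gata neurons it was 1.17 (80.9 CPM mutant-labelled, 35.9 CPM wild-type-labelled, 0.83 to 1.51) after the removal and 1.04 (77.1 CPM mutant-labelled, 37.5 CPM wild-type-labelled) without it. In neurons that met no further gate it was 0.64 (51.3 CPM mutant-labelled, 33.0 CPM wild-type-labelled, 0.44 to 0.83) after the removal and 0.62 without it. The direction depended on the count in otp/sim1 neurons. There the log2 ratio was 0.88 (-0.08 to 1.89, 28 mutant-labelled and 15 wild-type-labelled UMIs), with 23 of the 28 mutant-labelled UMIs in 1 cell, and it was -0.70 when the richest cell of each library was left out. With overlapping gates it was -0.77 (-1.17 to -0.38), at 84 UMIs (76.7 CPM) mutant-labelled and 159 UMIs (131 CPM) wild-type-labelled, and without the removal 0.92 (0.26 to 1.61). Gates with few *slc6a5* UMIs went both ways. Purkinje cells held 2 mutant-labelled and 11 wild-type-labelled UMIs (-2.30, -5.52 to -0.10), and barhl/lhx neurons 7 mutant-labelled and 21 wild-type-labelled UMIs (-0.62, -2.10 to 0.67). In phox2/isl1 neurons 0 mutant-labelled and 10 wild-type-labelled UMIs were counted, and a single wild-type-labelled cell held them. Cerebellar granule cells held 8 mutant-labelled and 4 wild-type-labelled UMIs (1.56), but 8 mutant-labelled and 28 wild-type-labelled UMIs (-1.03) without the removal. The *slc6a5* ratio was thus not above 1 in every neuronal gate, and the difference between gates was not tested.

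**Figure D4:**
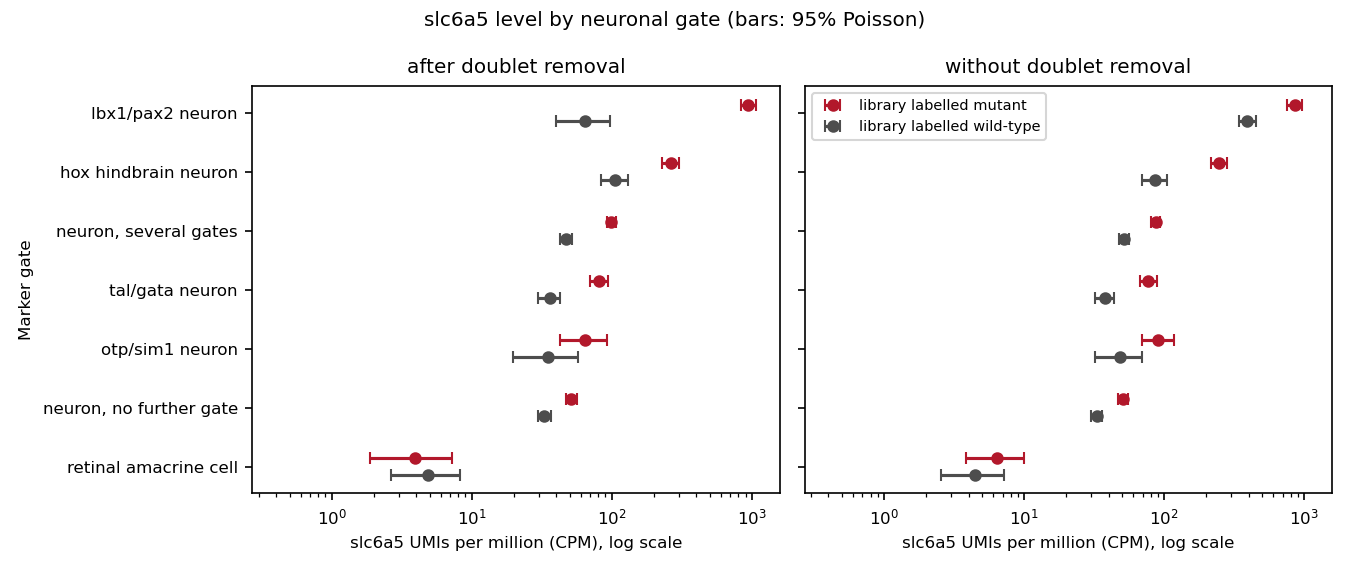
Level of *slc6a5* (CPM, log axis) in 7 neuronal gates for the libraries labelled mutant and wild-type, after and without removal of cells by the doublet score, with Poisson 95% bars. In lbx1/pax2 neurons the levels were 943 CPM mutant-labelled and 63.8 CPM wild-type-labelled after removal, and 851 CPM mutant-labelled and 392 CPM wild-type-labelled without it.

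Shares of positive neurons were compared at equal depth, since the median neuron held 3458 UMIs mutant-labelled and 2953 UMIs wild-type-labelled. After thinning to 1000 UMIs, 7340 mutant-labelled and 10804 wild-type-labelled neurons remained. A UMI of *slc32a1* was found in 14.3% (13.5% to 15.1%) of mutant-labelled and 11.6% (11.0% to 12.3%) of wild-type-labelled neurons, and before thinning in 27.3% mutant-labelled and 21.6% wild-type-labelled. The shares were 10.4% mutant-labelled and 9.52% wild-type-labelled for *gad2*, and 6.93% mutant-labelled and 6.36% wild-type-labelled for *gad1b*. The intervals of the *slc32a1* shares did not overlap, but how many of all genes have such a gap was not counted. Of all genes tested in neurons, 31.7% had a ratio interval above 0 and 12.6% one below it. For *slc6a5* the shares were 2.64% (2.29% to 3.04%) mutant-labelled and 1.91% (1.66% to 2.18%) wild-type-labelled. Those of *slc18a3a* were 2.28% (1.95% to 2.64%) mutant-labelled and 1.55% (1.33% to 1.81%) wild-type-labelled. The intervals of *slc6a5* and of *slc18a3a* did not overlap between the libraries either. The *slc17a7a* shares were 2.26% mutant-labelled and 1.66% wild-type-labelled. For the duplicates they were lower in the library labelled mutant, at 3.09% mutant-labelled and 3.33% wild-type-labelled for *slc17a6a* and at 3.30% mutant-labelled and 3.65% wild-type-labelled for *slc17a6b*.

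Combinations of transcripts were then counted in the same thinned neurons. A UMI of a gad gene or *slc32a1* was found in 25.3% (24.3% to 26.3%) of mutant-labelled and 22.5% (21.8% to 23.3%) of wild-type-labelled neurons. A UMI of an slc17 member was found in 8.32% (7.70% to 8.98%) of mutant-labelled and 8.29% (7.78% to 8.83%) of wild-type-labelled neurons. At this depth the intervals of the inhibitory share did not overlap, while the share of neurons with an slc17 member was alike. Such shares were not counted for combinations of other genes. In cells thinned to 2000 UMIs the inhibitory share was 36.7% mutant-labelled and 33.5% wild-type-labelled, and the slc17 share 15.2% mutant-labelled and 13.9% wild-type-labelled. Both kinds were found together in 20 mutant-labelled (0.272%) and 38 wild-type-labelled neurons (0.352%) at 1000 UMIs, whereas at 2000 UMIs per cell the order was the other way, 1.26% mutant-labelled and 0.931% wild-type-labelled. Among *slc17a6a* neurons, 1 of 227 mutant-labelled (0.441%) and 6 of 360 wild-type-labelled ones (1.67%) also held *slc32a1*. Of neurons without *slc17a6a*, 14.7% mutant-labelled and 12.0% wild-type-labelled held it.

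In both libraries, neurons with *gad2* or *slc6a5* held *slc32a1* more often than neurons without these genes. Among *gad2* neurons, 35.3% mutant-labelled and 33.4% wild-type-labelled also held *slc32a1*, against 11.8% mutant-labelled and 9.34% wild-type-labelled of neurons without *gad2*. Among *slc6a5* neurons, 62 of 194 mutant-labelled (32.0%) and 43 of 206 wild-type-labelled ones (20.9%) held *slc32a1*, against 13.8% mutant-labelled and 11.5% wild-type-labelled of neurons without *slc6a5*. Neurons with both *slc6a5* and *slc32a1* made up 0.845% (0.648% to 1.08%) of mutant-labelled and 0.398% (0.288% to 0.536%) of wild-type-labelled neurons. These intervals did not overlap. In the same thinned neurons those of *slc6a5* with a gad gene did, at 0.640% (0.471% to 0.851%) mutant-labelled and 0.592% (0.456% to 0.756%) wild-type-labelled. With neither thinning nor the doublet score, neurons with both *slc6a5* and *slc32a1* made up 2.83% (2.50% to 3.19%) mutant-labelled and 1.80% (1.59% to 2.03%) wild-type-labelled. Neurons with *slc6a5* and a gad gene then made up 2.59% (2.28% to 2.94%) mutant-labelled and 2.004% (1.78% to 2.25%) wild-type-labelled, and these intervals did not overlap either. The contrast between these pairs thus depended on the setting, and such shares were not counted for pairs of other genes.

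Many neurons with *slc18a3a* also carried transcripts of inhibitory transmission. With both libraries pooled, amacrine cells held 1165 *slc18a3a* UMIs and phox2/isl1 neurons 70. The pooled level of *slc32a1* was 638 CPM in amacrine cells and 28.3 CPM in phox2/isl1 neurons. That of *gad1b* was 152 CPM in amacrine cells and 10.1 CPM in phox2/isl1 neurons. Among *slc18a3a* neurons, 76 of 167 mutant-labelled and 84 of 168 wild-type-labelled ones held *slc32a1*, and 24.6% mutant-labelled and 31.0% wild-type-labelled held *gad1b*. Only 4.19% mutant-labelled and 5.36% wild-type-labelled held *gad2*, against 10.6% mutant-labelled and 9.59% wild-type-labelled of neurons without *slc18a3a*. Starburst amacrine cells are known to release both acetylcholine and GABA.

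**Figure D5:**
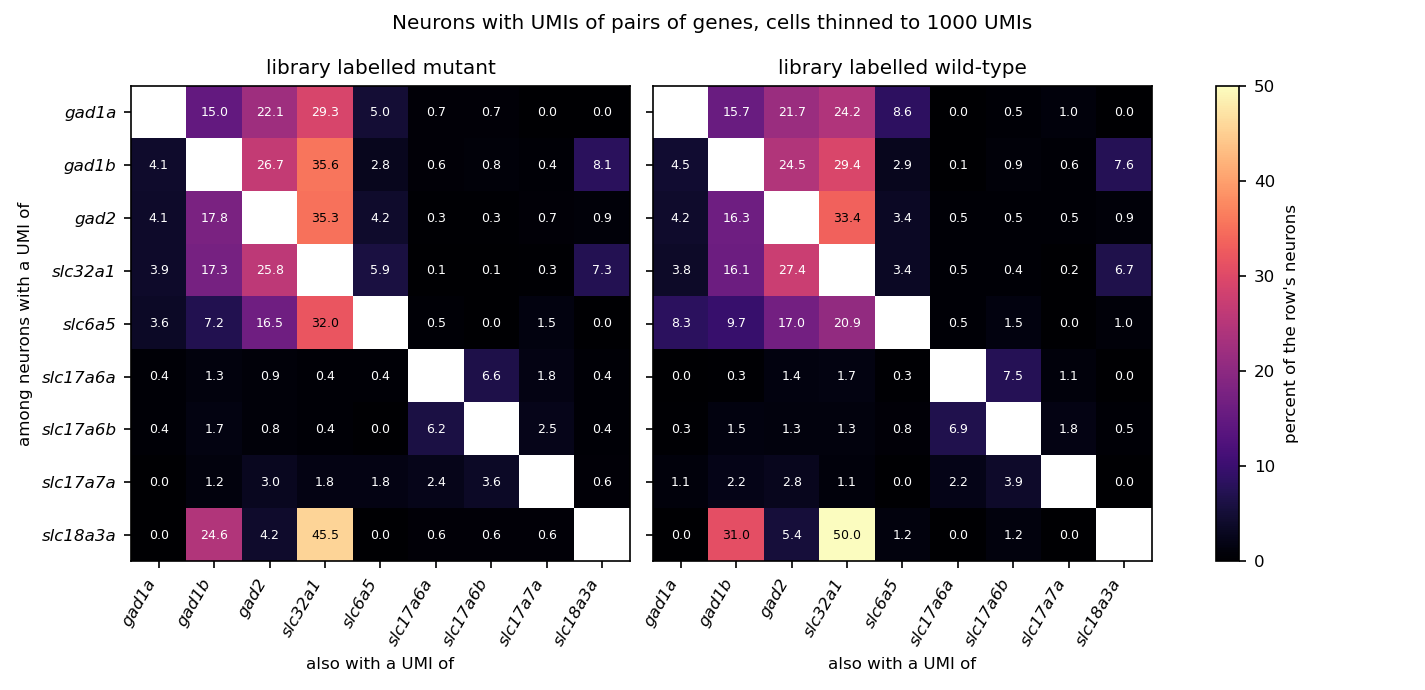
Percent of neurons with a UMI of the row gene that also hold a UMI of the column gene, each cell thinned to 1000 UMIs, with the library labelled mutant at the left and the library labelled wild-type at the right. The gad and *slc32a1* genes form one block, and *slc18a3a* shares cells with *slc32a1* (76 of 167 mutant-labelled, 84 of 168 wild-type-labelled). At this depth few *slc17a6a* neurons held a UMI of *slc32a1* (0.441% mutant-labelled, 1.67% wild-type-labelled).

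The levels of the members over cell types were compared with each other and with other genes. The Pearson correlation of log2(CPM + 1) over 52 points, the 26 gates in each library, is a description, since points of 1 library share its depth and points of 1 gate its markers. It was 0.91 between *gad2* and *slc32a1*, 0.85 between *gad1b* and *gad2*, and 0.79 between *slc17a6a* and *slc17a6b*, whereas *slc17a7a* had values of -0.05 to 0.20 with the other members. Among 11717 genes, the closest to *gad2* was *nrxn3a* (0.91), a presynaptic adhesion protein, and the closest to *slc32a1* after *gad2* were *cacng8a* (0.88) and *nrxn3a* (0.86). The closest to *gad1b* after *gad2* and *slc32a1* was *atcayb* (0.80), and to *gad1a* they were *lhx5* (0.69), a LIM homeodomain transcription factor, *slc32a1* (0.69) and *cacng8a* (0.68).

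The closest to *slc17a6a* were *nhlh2* (0.83), *nrn1a* (0.83) and *cbln1* (0.82), and to *slc17a6b* they were *spock1* (0.85), *kcnc1a* (0.84), a voltage-gated potassium channel subunit, and *LOC798483* (0.83). The closest to *slc17a7a* were *stxbp1b* (0.84), *cacna2d4b* (0.82) and *rs1a* (0.81), of which *rs1a* encodes the secreted retinal protein retinoschisin. To *slc6a5* they were *cacna2d3* (0.84), an auxiliary calcium channel subunit, *klhl14* (0.69) and the Hox gene *hoxc3a* (0.67). To *slc18a3a* they were *sv2c* (0.76), a synaptic vesicle glycoprotein, *cpne5a* (0.72) and *pvalb6* (0.70).

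The wider synaptic machinery was then described in the neuron gate with 8 lists, of which 98 of 105 genes were found. Of the shared synaptic vesicle proteins with a mean of at least 1 CPM, 18 of 18 had a ratio above 1, with a median log2 ratio of 0.30 and 10 above 1.2-fold. The farthest from equality were *syn1* (0.43), which tethers vesicles, *sv2c* (0.41) and *cplx2l* (0.39), a complexin that acts in vesicle fusion. Of the GABA and glycine receptor genes, 19 of 19 had a ratio above 1, with a median of 0.25 and 8 above 1.2-fold, among them the glycine receptor subunit *glra1* (0.36) and the GABA-A receptor subunit *gabrg3* (0.31). Of the glutamate receptor genes, 13 of 14 had a ratio above 1, with a median of 0.27 and 8 above 1.2-fold, led by *grin1b* (0.37), *gria4b* (0.33) and *grin2da* (0.31). Among all 17140 genes the median was 0.08, 64.5% had a ratio above 1 and 17.9% were above 1.2-fold. The medians of these lists, of 0.25 to 0.30, were thus close to the ratio of *slc32a1* (0.28) and above the median of the 9 members.

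Lists of the single transmitters were more mixed. Of all 17140 genes, 64.5% had a ratio above 1, 17.9% were above 1.2-fold and 8.69% were below 0.8-fold. In glycine handling, 4 of 4 genes had a ratio above 1 and 3 were above 1.2-fold. Among them *slc6a9*, another glycine transporter, was at 61.0 CPM mutant-labelled and 45.2 CPM wild-type-labelled (log2 ratio 0.43). In amacrine cells *slc6a9* stood at 198 CPM mutant-labelled and 196 CPM wild-type-labelled. Other neuronal gates went both ways. The log2 ratio was 2.44 (2.09 to 2.80) in barhl/lhx neurons, with 258 UMIs (127 CPM) mutant-labelled and 93 UMIs (23.4 CPM) wild-type-labelled. In pallial neurons it was -1.54 (-2.80 to -0.43), with 9 UMIs mutant-labelled and 30 UMIs wild-type-labelled. In radial glia and astroglia, outside the neuron gate, *slc6a9* stood at 683 CPM mutant-labelled and 780 CPM wild-type-labelled. In the acetylcholine list, 3 of 4 had a ratio above 1, with *chata* at 12.8 CPM mutant-labelled and 8.40 CPM wild-type-labelled (0.60) and *ache*, which breaks down acetylcholine, at 0.34. In GABA handling, 4 of 6 had a ratio above 1, with 1 above 1.2-fold and 2 below 0.8-fold. The GABA transporter *slc6a1a* was at 0.28, the GABA-degrading enzyme *abat* at 0.17 and *aldh5a1* at 0.05. In glutamate transport and recycling, 10 of 13 had a ratio above 1, with 2 above 1.2-fold and none below 0.8-fold, led by *slc38a2* (0.44), the glutamine synthetase *glula* (0.34) and the glutaminase *glsb* (0.25). In the monoamine list, 6 of 11 had a ratio above 1, with 4 above 1.2-fold and 4 below 0.8-fold, and *th*, the rate-limiting enzyme of catecholamine synthesis, at 0.34.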

How the data were processed

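Single cells of whole heads were captured with 10x Genomics GEM-X 3′ chemistry, 1 library per genotype. The authors deposited, for the barcodes called as cells by Cell Ranger, raw UMI counts per gene (version 8.0.0 in the file header, another in the methods), on build GRCz11 per the submitters' processing notes. Cells with 500 to 20000 UMIs, 500 to 5000 genes, a ratio of log genes to log UMIs of 0.8 or more and no more than 20% mitochondrial UMIs were kept. The study's doublet caller was not used. A neighbour score against simulated doublets was used (2 for each cell, in 30 components of 2000 variable genes), and 0.4% of cells per 1000 barcodes were removed, 12.9% mutant-labelled and 17.4% wild-type-labelled. This left 107901727 mutant-labelled and 121587453 wild-type-labelled UMIs.

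Most gates needed 2 markers with at least 3 UMIs and 0.1% of the UMIs of a cell. The neuron gate needed 2 markers and 0.1%, with no minimum of UMIs. Cells that met a gate of photoreceptors, bipolar cells, hair cells or a non-neuronal type were left out of it. Gates of cones, bipolar cells, radial glia, cartilage, skeletal muscle, epidermis and erythrocytes needed 3 markers and 0.3%. Cells of neuronal subtypes had to meet the neuron gate and 1 further gate only. Of 31 gates, 26 had at least 20 cells in each library. Gate thresholds were set after marker counts were seen. Counts were summed per gate. The members, lists and markers were chosen with earlier results of these data known. The genes named are the 9 members, the 3 most similar genes of each (mean of at least 10 CPM) and the 3 of each list with the log2 ratio farthest from 0 (mean of at least 10 CPM). Other genes named were chosen after their values were seen. A list gene and a pan-neuronal marker are not reported here. Ratios carry exact conditional binomial intervals, levels Poisson and shares Clopper-Pearson intervals. Python 3.11.15, numpy 2.4.6, scipy 1.17.1 and pandas 2.3.3 were used, and the ratio code was tested on simulated data. The alternatives were other filters, doublet settings, gates and scalings, thinning, and leaving out or capping rich cells, the last chosen after seeing the data.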

Additional observations from a re-analysis of the deposited data

Results flagged for a closer look

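Of 96 combinations of a member and a gate with at least 20 UMIs in both libraries together, 23 had an interval of the log2 ratio above 0 and 7 an interval below it, against 11.4% above and 7.51% below among such combinations of all genes. For 4 genes the gates farthest apart lay on opposite sides of 0, and these differences between gates were not tested. For *gad1a* the log2 ratio was 1.33 (0.46 to 2.27, 39 mutant-labelled and 16 wild-type-labelled UMIs) in hox hindbrain neurons and -0.31 (-0.59 to -0.04, 172 mutant-labelled and 320 wild-type-labelled UMIs) in tal/gata neurons. For *gad1b* it was 2.96 (2.07 to 3.95, 44 mutant-labelled and 14 wild-type-labelled UMIs) in olfactory sensory neurons, where 4 mutant-labelled and 3 wild-type-labelled cells held the UMIs, and -1.15 (-2.25 to -0.10, 13 mutant-labelled and 23 wild-type-labelled UMIs) in cartilage. For *gad2* it was 1.43 (0.76 to 2.12, 55 mutant-labelled and 30 wild-type-labelled UMIs) in cerebellar granule cells and -0.98 (-1.89 to -0.11, 19 mutant-labelled and 30 wild-type-labelled UMIs) in cartilage. Both cartilage values rest on low levels. With both libraries pooled, cartilage held 3.06 CPM of *gad1b* and 4.16 CPM of *gad2*. Epidermis, taken above as cells that should lack these transcripts, held 2.66 CPM of *gad1b* and 2.15 CPM of *gad2*. For *slc32a1* the log2 ratio was 4.57 (2.01 to 9.91, 39 mutant-labelled and 1 wild-type-labelled UMIs) in rods and -4.31 (-9.68 to -1.69, 1 mutant-labelled and 23 wild-type-labelled UMIs) in retinal ganglion cells. The rod gate held 69 mutant-labelled and 49 wild-type-labelled cells, and a single mutant-labelled cell held most of its *slc6a5* UMIs. The intervals do not account for UMIs that lie together in 1 cell. With cells that met several neuronal gates counted in each of them, the *slc32a1* value in ganglion cells was -0.71, the *gad2* value in granule cells 0.46, the *gad1b* value in olfactory sensory neurons 0.56 and the *gad1a* value in hox hindbrain neurons 0.61 (0.24 to 0.99). Without removal of cells by the doublet score, the *slc32a1* value was 2.11 in rods and -1.63 in ganglion cells, and the *gad1b* value in olfactory sensory neurons was 1.80.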

How the results depend on the processing

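No paired analysis was possible because each genotype has 1 library, and for the same reason no replicate could be left out. The number of members past 1.2-fold or 0.8-fold in neurons was 3, and 1 with a stricter neuron gate. The median log2 ratio of the members was 0.20, and 0.12 after centring on the median of all genes. The log2 ratio of *slc32a1* over all cells turned to -0.025 with every deposited barcode, against 0.08. With the gates of the library labelled mutant weighted to the makeup of the library labelled wild-type, the log2 ratio of *gad1b* over all cells was 0.040, against -0.08, and that of *slc17a6b* was 8.6e-04, against -0.15. In thinned neurons *slc17a6a* was at -0.079 (-0.32 to 0.16), against 0.13. In pallial neurons *slc17a6b* was at -0.0013 with overlapping gates, against 0.49. The cause was not tested in any of these cases. The log2 ratio of *slc6a5* stayed above 0 under every setting run, from 0.72 to 1.18 in neurons and from 0.40 to 0.97 over all cells.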
